A study of Mus musculus with 6 samples.

Results

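The cytosolic ribosomal protein (RP) genes were described by their peaks in chromatin immunoprecipitation with sequencing (ChIP-seq) for the zinc finger protein KLF3 and for a pair of KLF3 mutants. Members were the rows of the table of all peaks whose gene name was Rpl or Rps followed by a number, or Rplp0, Rplp1, Rplp2 or Rpsa, without the S6 kinases (Rps6k) and without pseudogene names ending in -ps. This rule took 65 of 22188 peaks, named for 43 genes. Of these, 27 peaks at 27 genes were annotated as promoter-TSS, which the study defined as 1000 bp upstream to 100 bp downstream of a RefSeq transcription start site (TSS). The other 38 peaks lay elsewhere and were named for the nearest start. Among the 27 promoters, 13 belonged to large subunit genes and 12 to small subunit genes. The other two were Rps27l, a paralogue of Rps27, and Rps19bp1, which encodes a protein that binds RPS19 and is not a ribosomal protein itself.

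All cells were murine embryonic fibroblasts (MEFs) of the C57BL/6 strain that lack endogenous Klf3 (Klf3-/-). They were rescued by retroviral transduction with V5-tagged KLF3, with ΔDL, a mutant of the CtBP contact motif, or with DBD, the zinc fingers and putative nuclear localization signal without the rest of the protein. Each line was 1 stable clone, chosen for a similar level of the tagged protein, so a difference between constructs and a difference between clones cannot be told apart. Immunoprecipitation with an anti-V5 antibody was done in 2 replicates per construct, each with an input, and the peak lists name the replicate.

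RP genes encode the protein part of the ribosome, and equal amounts of nearly all of the proteins are needed to build its subunits. They are among the most strongly transcribed genes of a growing fibroblast, their promoters usually lack a canonical TATA box, and their mRNAs start with a run of pyrimidines through which translation responds to growth signals. KLF proteins bind CACCC boxes and related GC-rich sequences with 3 zinc fingers, and KLF3 is known mainly as a repressor that recruits CtBP.

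The sequences below are the 100 bases around the centre of 7 of the 27 promoter peaks, on mm9 and on the strand of the gene. Shown are 3 of the highest KLF3 peaks whose window held no annotated exon (Rpl41, Rps15 and Rps12), the peaks with the lowest ΔDL height relative to KLF3 (Rpl31 and Rps23) and those with the highest (Rps26 and Rps15a). Capitals mark the CACCC-like cores, searched on either strand as the hexamer ACACCC, as the hexamer ACGCCC, as the hexamer CCACCC and as the hexamer CCGCCC.
Rpl41: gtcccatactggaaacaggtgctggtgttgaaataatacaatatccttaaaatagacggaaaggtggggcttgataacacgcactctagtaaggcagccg
Rps15: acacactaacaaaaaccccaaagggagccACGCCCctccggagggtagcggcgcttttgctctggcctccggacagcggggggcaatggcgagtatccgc
Rps12: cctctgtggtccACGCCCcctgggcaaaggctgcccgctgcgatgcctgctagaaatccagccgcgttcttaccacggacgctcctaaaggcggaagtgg
Rpl31: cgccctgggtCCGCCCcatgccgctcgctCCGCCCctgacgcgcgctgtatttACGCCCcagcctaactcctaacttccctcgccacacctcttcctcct
Rps23: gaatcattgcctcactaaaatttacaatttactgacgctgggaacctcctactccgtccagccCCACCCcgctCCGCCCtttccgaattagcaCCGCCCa
Rps26: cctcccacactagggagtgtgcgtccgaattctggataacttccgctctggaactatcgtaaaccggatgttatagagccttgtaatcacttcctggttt
Rps15a: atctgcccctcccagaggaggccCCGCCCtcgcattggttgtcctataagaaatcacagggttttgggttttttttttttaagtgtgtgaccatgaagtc
These windows lie at chr10:127986278-127986377 (Rpl41, minus strand), chr10:79755026-79755125 (Rps15, plus) and chr10:23507117-23507216 (Rps12, minus). The others lie at chr1:39424590-39424689 (Rpl31, plus), chr13:91062334-91062433 (Rps23, plus), chr10:128063802-128063901 (Rps26, minus) and chr7:125259726-125259825 (Rps15a, minus). In these 100 bases Rpl31 and Rps23 held 3 cores each, the most of any of the 27 promoter peaks, whereas Rpl41, the highest, held 0. In the full 400 bp of the peaks Rpl31 held 6, Rps23 held 5 and Rpl41 held 2.

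In the merged list, which holds peaks found in both replicates, KLF3 had a promoter peak at 24 of the 77 RP genes, or 31.2%, where 17.7% of 21896 RefSeq protein-coding genes had one. They comprised 13 of the 46 large subunit genes and 11 of the 31 small subunit genes. Within a construct, the deeper list named more of the genes. KLF3 replicate 1 (5.46 M tags) named 28 of the 77 genes against 21.2% of all genes, and replicate 2 (18.1 M tags) named 43, or 55.8%, against 29.9%. For ΔDL, 13 of the 77 genes had a merged promoter peak against 4.34% of all genes, with 16 in replicate 1 (1.77 M tags, 5.33% of all genes) and 44 in replicate 2 (10.2 M tags, 20.9%). For DBD no merged promoter peak was named for an RP gene. DBD replicate 1 (7.81 M tags) named 0 of the 77 genes against 0.603% of all genes and replicate 2 (8.38 M tags) named 2, Rpl38 and Rps15, against 0.977%. The tag numbers are those behind the scores, of which every score is a whole multiple within rounding. They are far below the mapped reads that the paper gives for the immunoprecipitations and are not in proportion to them. Deeper and shallower refer here to these tag numbers.

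Of the 77 genes, 25 had a promoter peak in both KLF3 replicate lists, 18 in the deeper replicate 2 alone, and 3 (Rpl21, Rpl36a and Rps2) in replicate 1 alone. One of the 25, Rpl32, is missing from the merged list because its peaks at chr6:115758948-115759070 (6 tags, replicate 1) and chr6:115758731-115758873 (25 tags, replicate 2) do not overlap. Both deeper lists, KLF3 replicate 2 and ΔDL replicate 2, held a peak at 34 genes. Another 9 genes were named at a promoter peak in a ΔDL list and in neither KLF3 list, among them Rpl23a, Rpl26, Rpl28, Rpl4, Rpl5, Rplp1, Rps21 and Rps25. For Rpl4 and Rps25, promoter peaks annotated to them were listed for KLF3 but named for their neighbours, as given below. Whether the ΔDL peaks named for Rpl4 and Rps25 lay at the same places was not tested. No list held a promoter peak named for 22 genes, among them Rplp0, Rpl7, Rps3, Rps9 and Rps18. Shares of all genes with these combinations of calls were not computed. Whether the counts in this paragraph differ from those of genes in general is therefore not known.

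**Figure D1:**
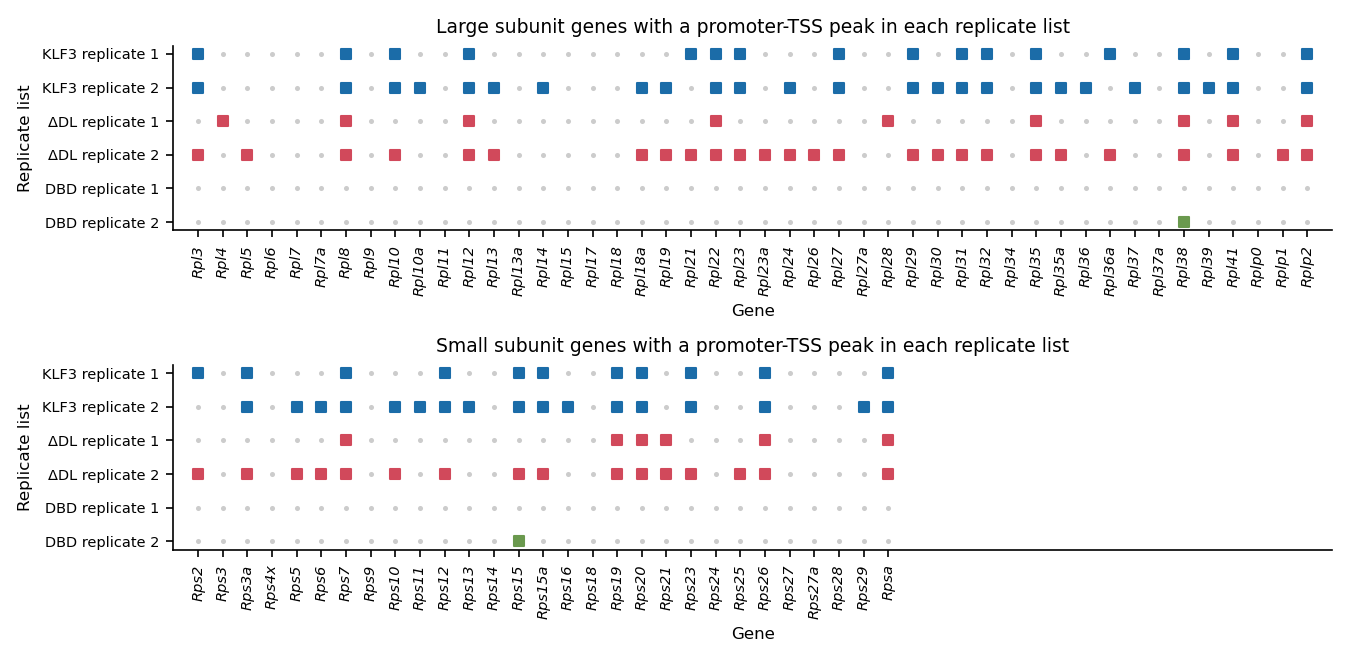
Promoter-TSS peaks of the 46 large subunit genes (upper panel) and of 29 of the 31 small subunit genes (lower panel) in each of the 6 replicate lists. A filled square is a gene with a peak named for it and a grey dot one without. KLF3 replicate 2 and ΔDL replicate 2, the deepest list of each construct, name 43 and 44 of the 77 genes, and the DBD lists name 0 and 2.

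Naming by the nearest start missed RP promoters that are shared with a neighbour. The promoter-TSS peak annotated to an Rpl4 transcript was named for Zwilch and stood at 9.04 in KLF3, 9.85 in ΔDL and 7.81 in DBD, on the scale of the heights below. It was listed for KLF3 and DBD, and ΔDL minus KLF3 was 0.81 (counting interval, 0.42 to 1.19). The 2 promoter peaks annotated to Rps25 were named for Trappc4. One stood at 8.66, 6.87 and 5.05, a difference of −1.79 (−2.69 to −0.95), and the other at 8.27, 7.84 and 5.35, a difference of −0.43 (−1.13 to 0.22). The peak annotated to Rpl36al, named for Mgat2, stood at 8.74, 8.23 and 4.82, a difference of −0.51 (−1.09 to 0.07). That annotated to Rpl9, named for Lias and listed for ΔDL alone, stood at 6.57, 7.56 and 6.53, a difference of 0.99 (0.06 to 1.90). These 5 peaks were not members, and their differences lay on both sides of 0. Conversely, the member peaks at Rpl3 and Rpl23 were annotated to small nucleolar RNAs, Snord43 and Snora21, whose genes lie within those RP genes.

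The height of a peak is the log2 of the tags in 400 bp per 100 M tags, with the tags of both replicates combined, so that there is 1 value per construct and no replicate error. Intervals given for differences between heights are 95% Clopper-Pearson intervals on the tags behind them and cover counting error only. Uniform coverage of the genome would give 15.1 normalized tags in 400 bp. A single tag was worth 4.29 normalized tags in KLF3, 8.45 in ΔDL and 6.23 in DBD. The heights are not divided by input, whose part in them was not tested.

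At the 27 RP promoter peaks the median height was 8.50 in KLF3 (range, 6.61 to 9.93), 8.49 in ΔDL (6.90 to 9.80) and 5.98 in DBD (4.77 to 6.96). The other promoter peaks of the table had medians of 8.32, 7.62 and 5.41. Thus RP promoters were near other promoters in KLF3 height and lay above them in ΔDL height. KLF3 was listed at 26 of the 27, where it was listed at 95.7% of all promoter peaks. ΔDL was listed at 14 of the 27 against 22.9% of all promoter peaks, and DBD at 0 against 1.44%. The single peak that was not listed for KLF3 was at Rps21, a small subunit gene, and was listed for ΔDL alone.

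**Figure D2:**
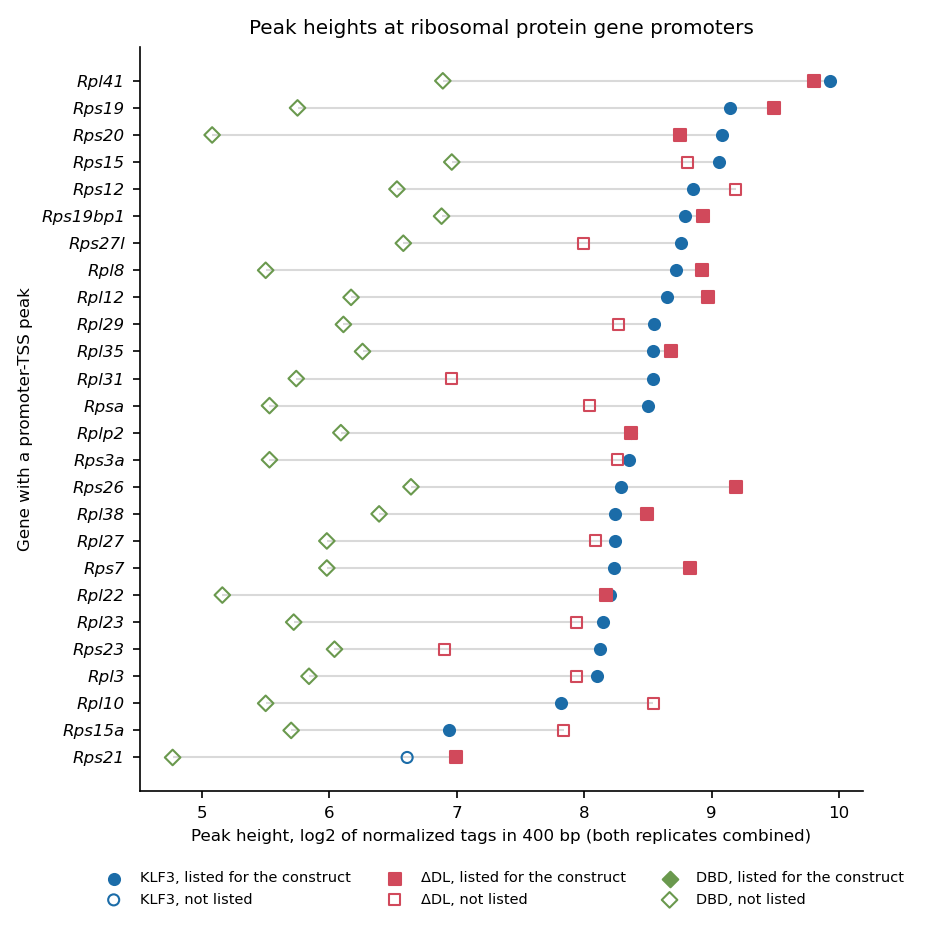
Peak height (log2 of normalized tags in 400 bp) of KLF3, ΔDL and DBD at 26 of the 27 promoter-TSS peaks, ordered by KLF3 height; filled symbols are peaks listed for the construct and open symbols are peaks that are not. The KLF3 and ΔDL symbols lie farthest apart at Rpl31 (−1.58), Rps23 (−1.22), Rps26 and Rps15a (0.90 each), Rps27l (−0.77) and Rpl10 (0.72), and the DBD symbols lie between 4.77 and 6.96.

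The highest KLF3 peak was at Rpl41 (chr10:127986128-127986528), which encodes a very small protein of the large subunit. Its heights were 9.93 in KLF3, 9.80 in ΔDL and 6.89 in DBD, and its peaks held 39 and 88 tags in the KLF3 replicates and 7 and 40 in the ΔDL replicates. No DBD list held it. Rps19, the small subunit gene best known from Diamond-Blackfan anaemia, followed with heights of 9.14, 9.49 and 5.75. It was called in both KLF3 replicates (29 and 43 tags) and both ΔDL replicates (5 and 33 tags).

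Rps20, another small subunit gene, had heights of 9.08 in KLF3, 8.75 in ΔDL and 5.08 in DBD, with 17 and 75 tags in the KLF3 replicates and 5 and 35 in the ΔDL replicates. At Rps15 the heights were 9.06, 8.81 and 6.96, and the peak was called in both KLF3 replicates (21 and 67 tags), in ΔDL replicate 2 (33 tags) and in DBD replicate 2 (8 tags). Rps15 had the highest DBD value of the 27 promoters.

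Rps12 had heights of 8.85 in KLF3, 9.19 in ΔDL and 6.53 in DBD, with 18 and 48 tags in the KLF3 replicates and 33 tags in ΔDL replicate 2. Rps19bp1 had heights of 8.79, 8.93 and 6.88, with 18 and 62 tags in KLF3 and 7 and 32 in ΔDL. Rps27l, induced by p53, had heights of 8.76, 7.99 and 6.58, with 17 and 57 tags in KLF3 and 19 in ΔDL replicate 2. None of these peaks was listed for DBD.

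At 20 of the 27 RP promoters the counting interval of ΔDL minus KLF3 included 0. The median difference, ΔDL minus KLF3, was −0.03 (quartiles, −0.23 and 0.33), whereas it was −0.72 (−1.23 and −0.26) at the 4233 other promoter peaks listed for KLF3. ΔDL was at least 2-fold lower at 2 of the 27 RP promoters, where it was so at 33.6% of all promoter peaks and 35% of those listed for KLF3. No RP promoter was at least 2-fold higher, against 0.854% of all promoter peaks. ΔDL was above KLF3 by any amount at 12 of the 27, against 16.1%. The counting interval lay below 0 at 3 RP promoters (49.5% of all promoter peaks) and above 0 at 4 (3.14%). Of the 27, 21 lay above the 75th percentile of the other KLF3 promoter peaks. They include Rps21, which was listed for ΔDL alone and so entered through the construct in which it is higher. At the 26 RP promoters listed for KLF3 the median was also −0.03. Of these 26, 2 were at least 2-fold lower and 11 were above KLF3 by any amount, against 13.7% of all KLF3 promoter peaks for the latter.

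The scale of this difference depends on the normalization. At the 2334 peaks listed for all 3 constructs, ΔDL heights were on median 1.06 above KLF3 and DBD heights 0.42 above. With heights set equal there, the RP median became −1.09 and that of the other KLF3 promoter peaks −1.78, and ΔDL was at least 2-fold lower at 15 of the 27 and at 88.1% of the others. The scaling moves every ΔDL minus KLF3 difference by the same constant. The distance between both medians is therefore fixed and is no check of the result.

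G+C content differed as well. The RP promoter peaks had a median G+C content of 56.9% (range, 41.9% to 69.8%) against 63.6% at other promoter peaks. Among the 2028 other KLF3 promoter peaks with a G+C content between 48.8% and 64.3%, the 10th to 90th percentile of the RP promoters, the median ΔDL minus KLF3 difference was −0.47 and 19.6% were at least 2-fold lower. Among the 2169 with a KLF3 height between 7.99 and 9.07, chosen likewise, it was −0.76, with 37.5% at least 2-fold lower. The part of G+C content in the result beyond these values was not tested.

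**Figure D3:**
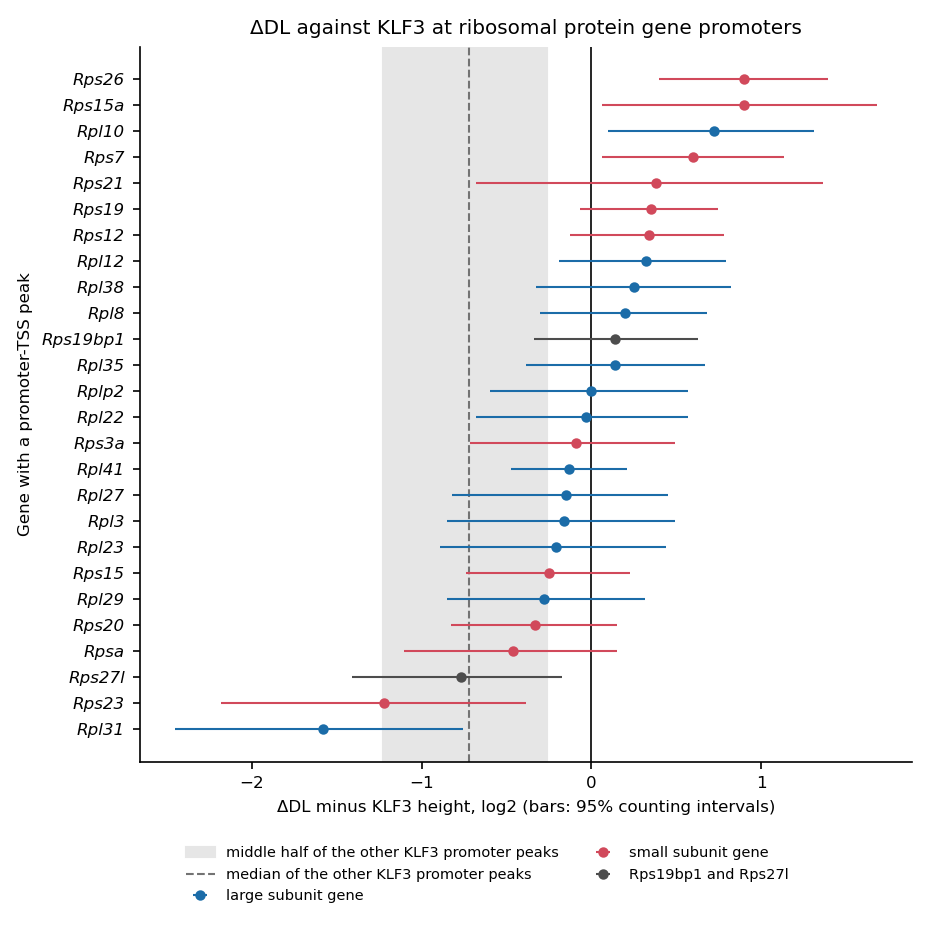
ΔDL minus KLF3 height (log2) at 26 of the 27 promoter-TSS peaks with 95% counting intervals, coloured by subunit; the grey band and dashed line are the quartiles and the median of the 4233 other KLF3 promoter peaks. Most RP promoters lie to the right of the band, and Rpl31 and Rps23 lie at −1.58 and −1.22.

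The lowest difference was at Rpl31 (chr1:39424440-39424840), a large subunit gene, with heights of 8.54 in KLF3, 6.96 in ΔDL and 5.74 in DBD. The difference of −1.58 had a counting interval from −2.46 to −0.76. It was called in both KLF3 replicates (13 and 48 tags) and in ΔDL replicate 2 with 10 tags. Rps23, of the decoding centre of the small subunit, had heights of 8.12, 6.90 and 6.04 at chr13:91062184-91062584. Its difference was −1.22 (interval, −2.18 to −0.39), and it was the only one of the 27 that overlapped no ΔDL call, although it was called in both KLF3 replicates (16 and 31 tags). ΔDL replicate 2 held another promoter peak named for Rps23, which did not overlap it.

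Rps27l followed with −0.77 (interval, −1.41 to −0.17). Rpsa, which encodes the small subunit protein also known as the laminin receptor, had heights of 8.50, 8.04 and 5.53 and a difference of −0.46 (−1.10 to 0.15). Its peak was the farthest from the start, at 670 bp upstream, with 17 and 42 tags in the KLF3 replicates and 7 and 14 in the ΔDL replicates. Rps20 had −0.33 (−0.83 to 0.15). Of these 5, the intervals at Rpsa and Rps20 include 0.

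At the other end, Rps26 (chr10:128063652-128064052) had heights of 8.29 in KLF3, 9.19 in ΔDL and 6.64 in DBD. The difference of 0.90 had an interval from 0.40 to 1.39, and its peaks held 18 and 22 tags in the KLF3 replicates and 10 and 33 in the ΔDL replicates. Rps15a (chr7:125259576-125259976) also differed by 0.90 (interval, 0.06 to 1.68), from lower heights of 6.94, 7.84 and 5.70, with 9 and 16 tags in the KLF3 replicates and 18 in ΔDL replicate 2. Both are genes of the small subunit.

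Rpl10, an X-linked gene whose protein sits near the peptidyl transferase centre, differed by 0.72 (0.10 to 1.31), with heights of 7.82, 8.54 and 5.50. Its KLF3 peaks held 7 and 22 tags, and ΔDL replicate 2 held 20. Rps7 differed by 0.60 (0.06 to 1.14), with heights of 8.23, 8.83 and 5.98 and tags of 15 and 31 in KLF3 and 10 and 27 in ΔDL. Rps21 differed by 0.38 (−0.68 to 1.36) and had the lowest KLF3 height of the family promoters, 6.61, beside 6.99 in ΔDL and 4.77 in DBD. Its ΔDL peaks held 5 and 9 tags. At the other 17 promoters the differences lay between −0.28 (Rpl29) and 0.35 (Rps19), and all of their intervals include 0.

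Large subunit promoters had a median ΔDL minus KLF3 difference of −0.03 over 13 peaks (range, −1.58 to 0.72) and small subunit promoters 0.16 over 12 peaks (−1.22 to 0.90). The 12 include Rps21, listed for ΔDL alone. The ranges overlap, and each subunit held 1 of the 2 promoters that were at least 2-fold lower.

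The replicate lists give the only values with a spread between replicates. Both replicates of a construct come from 1 clone, so p-values measure only the spread between these lists, and the ΔDL and DBD comparisons share the KLF3 lists. Of the 26 RP promoters listed for KLF3, 25 overlapped a peak of ΔDL replicate 2, which held 72.5% of all KLF3 promoter peaks, and 14 overlapped a peak of the shallower ΔDL replicate 1, which held 22.2%. RP promoters made up 0.634% and 0.676% of all promoter peaks in the KLF3 lists (34 and 50 peaks), 1.34% and 0.962% in the ΔDL lists (17 and 50 peaks) and 0% and 0.881% in the DBD lists (0 and 2 peaks). The share was 0.655% ± 0.0297 in KLF3 and 1.15% ± 0.268 in ΔDL (SD, n = 2 each). Both ΔDL values were above both KLF3 values, but 2 lists against 2 cannot give less than p = 0.333 in a two-sided exact permutation test, which is the value found (adjusted p = 0.778 over 7 comparisons). The number of RP promoter peaks did not separate ΔDL from KLF3 (33.5 ± 23.3 against 42.0 ± 11.3, exact permutation p = 1). For DBD it was 1.00 ± 1.41 (exact permutation p = 0.333, adjusted p = 0.778).

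Of the 27 peaks of the table, 26 and 26 were called in the KLF3 lists, 15 and 26 in the ΔDL lists and 0 and 2 in the DBD lists. The KLF3 counts are set by how the table was made, since its KLF3 peaks need both replicates. The tests of these counts (exact permutation p = 1 for ΔDL and 0.333 for DBD) add no evidence for that reason. Within each list, the median RP promoter peak had a score at percentile 71.0 and 49.5 of the promoter peaks in KLF3 and at percentile 64.5 and 73.3 in ΔDL (exact permutation p = 0.667). The KLF3 and ΔDL ranks overlap.

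DBD was at least 2-fold below KLF3 at 27 of the 27, where it was so at 97.3% of all promoter peaks, so that the share was near that of promoters in general. The median difference was −2.32 at RP promoters and −3.02 at the other KLF3 promoter peaks. The RP promoters had a median of 63.1 normalized tags in DBD, other promoter peaks 42.5, and uniform coverage would give 15.1. The smallest differences were at Rps15a (−1.24, interval −2.66 to −0.15), Rps26 (−1.65, −2.53 to −0.86) and Rps21 (−1.84, −3.98 to −0.43). The largest was at Rps20 (−4.0). Of the 2 promoters with a DBD call, Rpl38, a large subunit gene known for its role in patterning of the axial skeleton, had heights of 8.24 in KLF3, 8.49 in ΔDL and 6.39 in DBD. Its peaks held 17 and 29 tags in KLF3, 7 and 26 in ΔDL and 8 in DBD replicate 2.

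RP promoter peaks sat close to the start. Their centres lay from 670 bp upstream to 31 bp downstream (median, 92 bp upstream), and 19 of the 27 lay between 150 bp upstream and 50 bp downstream. The median of other promoter peaks was 79 bp upstream, and 66.4% lay in that span. Mean PhastCons conservation had a median of 0.16 at the 26 RP promoter peaks of the KLF3 list and of 0.22 at its other promoter peaks.

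A CACCC-like core was found in 100 bp around the centre of 22 of the 27 RP promoter peaks (81.5%) and of 83.1% of other promoter peaks. RP peaks held fewer of them, 1.19 on average against 1.63. In 400 bp the shares were 88.9% and 97.0%. The hexamers CCACCC and ACACCC alone matched at 22.2% of RP and 26.8% of other promoter peaks within 100 bp, and at 40.7% and 61.5% within 400 bp. The 5 RP promoter peaks without a core in 100 bp were at Rpl22, Rpl23, Rpl27, Rpl41 and Rps26.

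The number of cores moved with the ΔDL difference across other promoters. At other KLF3 promoter peaks with 0 cores in 100 bp the median ΔDL minus KLF3 difference was −0.40 and 21.6% were at least 2-fold lower (667 peaks). With 1 core it was −0.55 (26%, 1431 peaks), with 2 it was −0.80 (39.1%, 1211 peaks), with 3 it was −0.96 (47.6%, 607 peaks) and with more it was −1.24 (65.6%, 317 peaks). The median G+C content went from 59.9% to 68.3% over the same groups, so cores and G+C content move together. RP promoters had medians of −0.13 with 0 cores (5 peaks), 0.00 with 1 (13 peaks) and 0.17 with 2 (6 peaks). The 2 RP promoters with 3 cores in 100 bp were Rpl31 and Rps23, shown above, the same ones that were at least 2-fold lower. This pairing depends on the window. In 400 bp Rps19 and Rps19bp1 held 6 cores, as did Rpl31, and Rpl35 held 5, as did Rps23. The ΔDL minus KLF3 differences at Rps19, Rps19bp1 and Rpl35 were 0.35, 0.14 and 0.14.

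**Figure D4:**
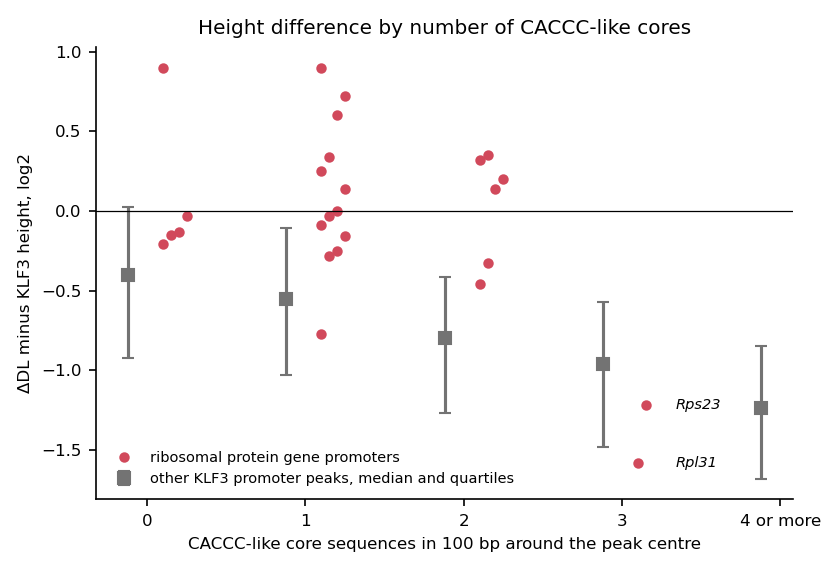
ΔDL minus KLF3 height (log2) against the number of CACCC-like cores in 100 bp around the peak centre; red points are the 26 RP promoter peaks listed for KLF3, and grey squares with bars are the median and quartiles of other KLF3 promoter peaks. The grey medians go from −0.40 with 0 cores to −1.24 with 4 or more, while the RP points with up to 2 cores lie between −0.77 and 0.90 and Rpl31 and Rps23, with 3 cores, lie at −1.58 and −1.22.

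Other sequences were searched on both strands in the 400 bp of the peaks. The ETS word CCGGAAG was found in 12 of the 27 RP promoter peaks (44.4%) and 21.8% of other promoter peaks, and the YY1 word AAGATGG in 3 (11.1%) and 8.81%. The shares for CCAAT were 40.7% and 41.3%, for TATAAA 11.1% and 6.60%, for the E2F word GCGGGAA 18.5% and 14.1%, for the AP-1 word TGACTCA 7.41% and 4.79%, and for the NRF1 motif 3.70% and 10.8%. The largest gap in percentage points among these words was that of the ETS word. CCACCC and ACACCC are part of the CACCC-like cores, and the E2F word can share bases with a core on the other strand. No difference in these shares was tested.

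The same words were searched in RefSeq promoters of GRCm38, from 250 bases before to 50 after the start, which were found for 67 of the 77 RP genes. CCGGAAG was in 25 of them (37.3%) and in 8.80% of 32784 other promoters, and AAGATGG in 11 (16.4%) and 6.32%. A CACCC-like core was in 54 (80.6%) against 62.2%, whereas CCACCC or ACACCC was in 21 (31.3%) against 41.9%. RP promoters with a KLF3 peak held a core in 19 of 22 (86.4%) and those without in 35 of 45 (77.8%), and held CCACCC or ACACCC in 11 of 22 (50%) and 10 of 45 (22.2%). A pyrimidine run of at least 5 bases over the start, the feature behind the translational control of these mRNAs, was present in 20 of the 67 (29.9%) and 10.1% of other promoters. It was in 5 of the 22 with a KLF3 peak (22.7%) and 15 of the 45 without (33.3%). The run was sought at the annotated RefSeq start, and how exactly these starts mark the first base of the mRNA was not tested. These shares are therefore not the shares of genes whose mRNAs start with pyrimidines.

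Other genes of the translation machinery were taken from fixed lists. Of 16 translation genes whose mRNAs also start with pyrimidines, 7 had a promoter peak, all listed for KLF3 and 3 for ΔDL. Of all protein-coding genes, 17.7% had a promoter peak for KLF3 and 4.34% for ΔDL. Their median ΔDL minus KLF3 difference was −0.18, and 1 of the 7, Pabpc1, the poly(A)-binding protein, was at least 2-fold lower (−1.44). Eef1a1, the elongation factor that delivers aminoacyl-tRNA, had heights of 9.40 in KLF3, 9.22 in ΔDL and 6.25 in DBD, and Eef2, the translocase, 8.51, 8.65 and 6.09. Fau and Gnb2l1, ribosomal proteins under other names, had differences of −0.44 and 0.04.

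The 19 promoter peaks of mitochondrial RP genes, which serve the separate ribosome of that organelle, had a median of −0.14 with 5 of 19 at least 2-fold lower. Promoter peaks were found at 4 of 20 ribosome biogenesis genes, with a median of −0.16, of which 1 (Bop1, −1.41) was at least 2-fold lower. They were found at 4 of 11 genes of RNA polymerase I and its factors, with a median of −0.67, of which Polr1d (−1.41) and Polr1e (−1.01) were at least 2-fold lower. At the S6 kinases, which phosphorylate RPS6 or related targets, 3 of 10 genes had a promoter peak, with differences of −0.13 (Rps6ka4), −0.17 (Rps6kc1) and −2.56 (Rps6ka3). The peaks of the biogenesis, polymerase and S6 kinase lists were all listed for KLF3, which had a promoter peak at 17.7% of protein-coding genes. The share of biogenesis genes is near that value. No difference between these lists and the RP genes, or genes in general, was tested.

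The 38 member peaks outside promoters differed from those at promoters in where they lay and in their heights. They comprised 25 intergenic and 10 intronic peaks and 3 at an exon, a 3' UTR and a transcription end, and 31 lay more than 10 kb from the start they were named for. Their names thus give the nearest gene and no more. Among them 19 were listed for ΔDL or for ΔDL and DBD and not for KLF3, 9 for KLF3 alone and 7 for DBD. The 9 KLF3 peaks had a median G+C content of 56.1% and the 19 without KLF3 of 39.2%.

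ΔDL was at least 2-fold higher at 14 of the 38, against 35.8% of all peaks outside promoters, and at least 2-fold lower at 4, against 10.1%. KLF3 was listed at 19 of the 38, against 55.6%, ΔDL at 28, against 63.3%, and DBD at 7, against 27.6%. The shares for ΔDL are close to those of peaks outside promoters in general. The highest in KLF3 lay in an intron of Pxn, 25141 bp upstream of Rplp0, with heights of 9.20 in KLF3, 8.47 in ΔDL and 5.59 in DBD and with 38 and 68 tags in the KLF3 replicates and 28 in ΔDL replicate 2. It was followed by an intergenic peak 303332 bp downstream of the start of Rps24 (9.13, 8.22 and 5.53), with 21 and 59 tags in KLF3 and 21 in ΔDL replicate 2.

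Another peak of that region, 288851 bp downstream of the same start, had heights of 8.19, 7.01 and 5.24, with 10 and 35 tags in KLF3 and no ΔDL call. A peak 1907 bp upstream of Rpl13 stood at 8.20, 7.59 and 4.44, with 16 and 25 tags in KLF3 and 12 in ΔDL replicate 2. One 219059 bp from Rplp1 stood at 8.13, 7.44 and 5.47, with 10 and 38 tags in KLF3 and 5 and 10 in ΔDL. All 5 were lower in ΔDL than in KLF3, but they were chosen for their KLF3 height, a choice that favours this direction. The counting intervals of ΔDL minus KLF3 include 0 at the Rpl13 peak (−1.36 to 0.09) and the Rplp1 peak (−1.44 to 0.08). At the others the intervals lay below 0.

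Of the peaks with the largest ΔDL minus KLF3 differences, 2 lay 300994 bp from Rps15a (6.33 in KLF3, 7.85 in ΔDL, 6.97 in DBD, a difference of 1.52) and 353060 bp from Rps15a (5.98, 7.37 and 6.35, 1.39). Their ΔDL peaks held 7 and 15 and, for the other, 6 and 14 tags in replicates 1 and 2. The first was also called in KLF3 replicate 1 (7 tags) and DBD replicate 1 (10 tags), and the other in DBD replicate 2 (8 tags). Both peaks were listed for ΔDL alone, so they entered the list of all peaks through the construct in which they are high. With heights set equal at the peaks listed for all 3 constructs, their differences were 0.46 and 0.33.

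The 7 peaks listed for DBD had DBD heights from 6.98 to 7.64 and KLF3 heights from 6.51 to 7.26. They were chosen by their DBD calls, and none of the 27 promoters was listed for DBD. Their DBD heights are therefore not compared with those of the promoters. The highest in DBD was 650052 bp from Rps29 (6.95 in KLF3, 8.19 in ΔDL and 7.64 in DBD), with 16 and 17 tags in KLF3, 17 and 27 in ΔDL and 19 and 12 in DBD. A second peak near Rps29, 6870 bp from it, stood at 7.03, 7.87 and 7.14. One 32903 bp from Rplp1 stood at 7.26, 8.36 and 7.56. An intronic peak of Clhc1, 29576 bp from Rps27a, stood at 6.72, 8.0 and 7.25. The closest to a start lay in an intron of Rpl36a itself, 686 bp downstream (6.68, 7.44 and 7.03), and another 7418 bp from Rpl14 (6.51, 7.30 and 6.98).

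**Figure D5:**
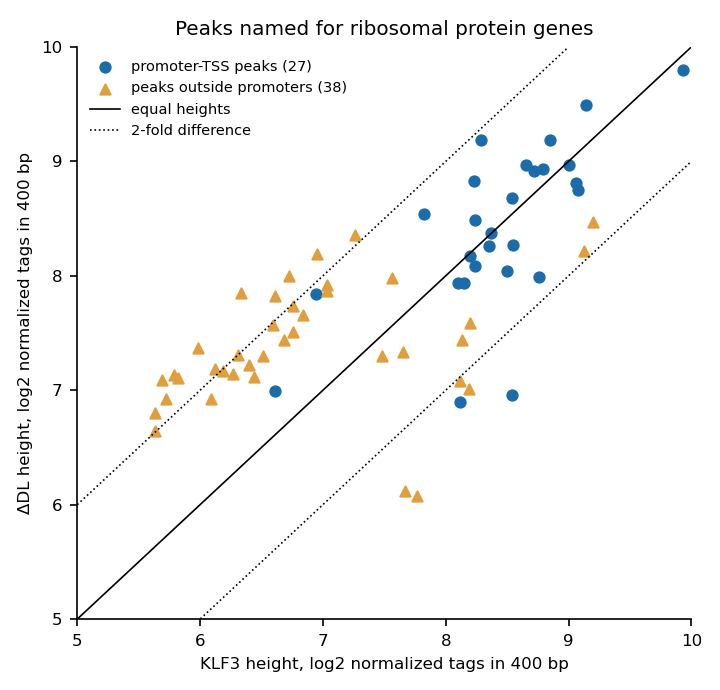
ΔDL height against KLF3 height (both log2 of normalized tags in 400 bp) for the 65 member peaks; circles are the 27 promoter-TSS peaks and triangles the 38 peaks outside promoters, the solid line marks equal heights and the dotted lines a 2-fold difference. Promoter peaks lie around the line of equal heights, and peaks outside promoters lie in a group of low KLF3 height above it and a smaller group of higher KLF3 height below it.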

How the data were processed

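Anti-V5 ChIP-seq was done in Klf3-/- MEFs rescued with KLF3, ΔDL or DBD, in 2 replicates each. The authors mapped 50 bp reads to mm9 with Bowtie2 and called peaks with HOMER, at least 5-fold over input and over the surroundings and at an FDR of 0.001. Their submission notes name Bowtie2 2.0.0, FastQC 0.10.1, HOMER 4.1 and SAMtools 0.1.18. The merged lists hold peaks that overlap between both replicates. The deposited table of all peaks gives heights as log2 of tags per 100 M, to which HOMER adds a small random term, and the deposited lists give G+C content as a fraction and conservation as a PhastCons score. The deposited replicate lists give each peak's normalized tags as a signal. All 6 replicate lists, 3 merged lists and the table were read, and inputs were not analysed here. The same peak listed in 2 of the tables differed by an SD of 0.0132 in log2 height over 10820 peaks (largest, 0.08).

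Heights have 1 value per construct, so differences between them have no test. Counts over replicate lists were compared by two-sided exact permutation tests, 2 against 2, with Benjamini-Hochberg adjustment over 7 tests (scipy 1.17.1). Overlap was at least 1 bp. Scripts used Python 3.11.15, numpy 2.4.6, pandas 2.3.3, pysam 0.24.0 and matplotlib 3.10.9 and were tested on simulated data. Sequences were read from mm9, whose G+C content matched that deposited at 99.99% of peaks. The promoters searched for words were those of RefSeq on GRCm38.p6.

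Full values are given for the 8 highest KLF3 heights, the 5 lowest and 5 highest ΔDL minus KLF3 differences, the 3 highest DBD minus KLF3 differences and, outside promoters, the 5 highest KLF3 peaks and 3 largest ΔDL differences, except for items that are not reported here. Those items still count in totals and medians. The members, the gene lists and these rules were chosen with earlier results of these data known. Scaling, fold, filters, overlap, thresholds and single replicates were varied.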

Additional observations from a re-analysis of the deposited data

How the results depend on the processing

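Of 68 alternative values, 56 were counted as the same, 10 as moved and 2 as reversed. Of the 68, 6 were chosen after seeing the data. For differences in calls and ranks between replicate lists, only the sign was checked, and 0 counted as the same. The difference in the number of peaks called, ΔDL minus KLF3, was −5.5 with all lists, 0 without ΔDL replicate 1 and −11 without ΔDL replicate 2. With heights scaled over the peaks listed for all 3 constructs, the median ΔDL minus KLF3 difference at RP promoters was −1.09 and 15 of the 27 were at least 2-fold lower, and with a fold of 4 in place of 2 none (0) were. From single replicates, RP promoter peaks numbered 34 to 50 in KLF3, 17 to 50 in ΔDL and 0 to 2 in DBD, and 28 to 43 RP genes had a KLF3 promoter peak. Without a cut, 26 RP promoter peaks were listed for KLF3 and 14 for ΔDL. Where lists were cut to their upper 50% by score, 23 were listed for KLF3 and 7 for ΔDL. With equal numbers of top peaks, 21 were listed for KLF3 and 7 for ΔDL. Shares of all promoter peaks under these cuts were not computed. The ΔDL minus KLF3 difference in percentile rank was −3.38 with ranks among all peaks (exact permutation p = 0.667) and −2.05 to 19.5 when each replicate was left out, the lowest without KLF3 replicate 2. CCACCC and ACACCC alone matched at 22.2% of RP promoter peaks. An overlap of at least 50% of the 400 bp peak gave no value, because replicate peaks were 97 to 143 bp wide. The cause of these changes was not tested beyond that.

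No paired analysis was possible because the heights combine both replicates and the replicate lists of different constructs share only a number. ΔDL replicate 1 had the fewest tags (1.77 M) and held 17206 peaks, and the part of tag number in its list was not tested.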
